A study of Mus musculus with 12 samples.

Results

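The 7 loci described here are genes of myeloid differentiation: the transcription factor genes Spi1, Cebpa, Cebpb, Gfi1 and Irf8, and the granule genes Mpo and Elane. Each is a fixed stretch of the mouse genome (build mm9) of 20 to 60 kb around the gene, and its members are the CpGs inside it with at least 10 reads in at least 2 libraries of each group, the counts of both strands added. This rule left 815 CpGs of the 1157487 autosomal CpGs that passed it in the whole data set: 45 at Spi1, 203 at Cebpa, 224 at Cebpb, 113 at Gfi1, 150 at Irf8, 30 at Mpo and 50 at Elane. The windows were chr2:90915001-90965000 (Spi1), chr7:35890001-35950000 (Cebpa), chr2:167500001-167530000 (Cebpb), chr5:108130001-108170000 (Gfi1), chr8:123245001-123295000 (Irf8), chr11:87595001-87630000 (Mpo) and chr10:79340001-79360000 (Elane). No annotation of mm9 was used, so exons and introns are not given, and distances are from a start placed by CpG spacing where one could be placed. Of the 1000-bp tiles that the windows were divided into, 57 held at least 3 CpGs read in every library and were tested, of 81040 tiles tested on all autosomes.

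DNA methylation was measured by reduced representation bisulfite sequencing, which cuts DNA at CCGG sites with MspI and therefore reads mostly CpG-rich sequence, in Lin- Sca1+ cKit+ (LSK) bone marrow cells, the bone marrow fraction that holds most blood stem cells. Donors were C57BL/6 mice aged 6 months with mutations made conditionally in the blood system: leukemic animals with both Tet2-/- and Nras G12D, nonleukemic animals with both mutations, Tet2-/- animals and Nras G12D animals. Each of the 4 groups had 3 libraries, and by the positions listed on chromosome Y the sexes were not balanced between groups. Tet2 encodes an enzyme that oxidises 5-methylcytosine and so starts its removal, and Nras G12D is a constitutively active form of a RAS protein. The promoter that drives the deletion is not given in the sources used here, wild-type libraries were not analysed here, and every group carries at least 1 of the mutations, so no value below is a comparison with normal cells. No expression was measured, so the LSK gate could not be checked against marker genes. The question put to the 7 loci was whether their methylation differed between the 4 genotype and disease groups.

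PU.1 (encoded by Spi1) and the C/EBP factors are DNA-binding proteins that open and activate the genes of monocytes and granulocytes. GFI1 represses monocyte genes and favours neutrophil development, while IRF8 favours monocytes and dendritic cells over neutrophils. Mpo and Elane encode myeloperoxidase and neutrophil elastase, enzymes stored in the primary granules that promyelocytes make. Methylation of a CpG-rich promoter usually goes with a silent gene, whereas CpG-poor promoters, such as those of many granule genes, are commonly methylated until the gene is used.

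The sequences just before the transcription start show that contrast, and they set what the assay could read. The 250 bases upstream of the start are given 5′ to 3′ from RefSeq (assembly GRCm38.p6), with every CpG in capitals. Of 2 RefSeq promoters of Gfi1 and 2 of Irf8, the one shown is the one that could be placed on mm9.
Cebpa: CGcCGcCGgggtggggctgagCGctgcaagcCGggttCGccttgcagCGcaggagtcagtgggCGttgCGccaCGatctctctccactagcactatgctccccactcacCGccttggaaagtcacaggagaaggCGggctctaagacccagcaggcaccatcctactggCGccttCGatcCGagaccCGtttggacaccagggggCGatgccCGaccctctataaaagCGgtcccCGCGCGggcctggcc
Cebpb: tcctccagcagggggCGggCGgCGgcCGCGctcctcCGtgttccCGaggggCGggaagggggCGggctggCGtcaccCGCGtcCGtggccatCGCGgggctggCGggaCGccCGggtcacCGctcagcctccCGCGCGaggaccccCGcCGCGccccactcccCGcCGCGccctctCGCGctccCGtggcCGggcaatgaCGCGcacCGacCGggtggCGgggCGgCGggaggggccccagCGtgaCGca
Gfi1: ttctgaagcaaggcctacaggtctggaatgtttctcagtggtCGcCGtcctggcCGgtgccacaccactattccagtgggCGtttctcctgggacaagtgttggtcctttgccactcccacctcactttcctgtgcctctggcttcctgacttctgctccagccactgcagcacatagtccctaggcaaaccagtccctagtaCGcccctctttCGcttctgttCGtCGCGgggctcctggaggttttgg
Irf8: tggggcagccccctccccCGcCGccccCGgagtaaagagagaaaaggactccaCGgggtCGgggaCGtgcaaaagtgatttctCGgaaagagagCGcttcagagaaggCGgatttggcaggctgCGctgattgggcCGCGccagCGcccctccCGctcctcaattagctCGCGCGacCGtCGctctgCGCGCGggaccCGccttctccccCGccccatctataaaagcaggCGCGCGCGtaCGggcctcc
Mpo: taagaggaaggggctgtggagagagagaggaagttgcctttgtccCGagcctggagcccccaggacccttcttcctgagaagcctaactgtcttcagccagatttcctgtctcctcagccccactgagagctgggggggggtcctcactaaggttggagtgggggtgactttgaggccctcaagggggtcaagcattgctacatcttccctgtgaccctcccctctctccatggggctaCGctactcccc
Elane: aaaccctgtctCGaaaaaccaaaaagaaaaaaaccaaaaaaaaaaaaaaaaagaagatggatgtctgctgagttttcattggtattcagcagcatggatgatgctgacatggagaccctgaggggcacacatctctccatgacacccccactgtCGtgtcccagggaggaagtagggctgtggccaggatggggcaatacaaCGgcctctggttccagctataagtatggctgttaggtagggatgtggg
The 300-base RefSeq promoters, which include 50 bases after the start, held 50 CpGs at Cebpb, 38 at Irf8, 29 at Cebpa and 10 at the Gfi1 promoter shown, against 6 at Elane and 2 at Mpo. The median over 32851 mouse promoters was 7. The letters GAGGAAGT, a form of the PU.1 recognition sequence, were found on the forward strand of both granule gene promoters, at position -224 of Mpo and -85 of Elane, and on neither strand of the transcription factor promoters shown. Of all promoters, 2.44% held these letters on either strand. TATAAA stood at -30 of Cebpa and -31 of Irf8, and in 12.4% of all promoters on either strand. TTGCNNAA, a form of the C/EBP recognition sequence, was in none of the 6 sequences and in 9.56% of all promoters. Spi1 had no entry in the promoter table.

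Reads over the listed cytosines numbered 96300485 to 199736369 per library, and the median coverage of a tested CpG was 70 to 146 reads. Leukemic libraries of the same group differed from each other more than other replicates did. The mean chi-square per tile between 2 replicates was 21.8 to 36.1 in the leukemic group and 6.54 to 6.73 in the nonleukemic double mutants. It was 11.1 to 20.5 in Tet2-/- and 6.62 to 11.2 in Nras G12D. Tiles almost unmethylated or almost fully methylated were left out of it. One fact bears on the labels. Among CpG positions with at least 20 reads in every library of some groups and listed in no library of the others, 160 were shared by Nras G12D and leukemic libraries only, 155 of them on chromosome 3, which carries Tet2. Another 136 were shared by Tet2-/- and nonleukemic double mutant libraries only, 96 of them on chromosome 3, and 0 by Tet2-/- and leukemic libraries only. In these chromosome 3 positions the leukemic libraries shared the pattern of Nras G12D and not that of the other groups labelled Tet2-/-. The Tet2 genotype of the leukemic libraries was not checked here. A further 297 were listed in nonleukemic double mutant libraries only, 216 of them on chromosome 8, which carries Irf8. The nearest of these to Irf8 was 32337 kb away. None of the positions in these sets lay inside the 7 windows. No source used here says whether libraries of 1 group came from separate animals. Positions listed on chromosome Y numbered 349, 2 and 5 in nonleukemic double mutants and 360, 251 and 6 in Tet2-/-. They numbered 18, 7 and 2 in leukemic and 6, 13 and 7 in Nras G12D libraries. The nonleukemic and Tet2-/- libraries thus did not all come from 1 animal per group. Sex was not balanced between groups, and its part was not tested. A p-value here measures how far these libraries spread, which may be technical in part, or wholly in the leukemic and Nras G12D groups.

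At the level of whole windows, averaged over the CpGs read in every library, Mpo was lower in leukemic than in nonleukemic double mutant libraries by more than 10 percentage points, while the other 6 windows differed between these groups by 3.51 points or less. Mean methylation over 29 Mpo CpGs read in every library was 77.2, 79.8 and 79.1% in leukemic libraries, against 89.7, 90.6 and 89.7% in nonleukemic double mutants, 90.1, 91.9 and 90.1% in Tet2-/- and 87.2, 89.5 and 89.7% in Nras G12D. The 3 leukemic libraries lay below all 9 others. The mean was 78.7 ± 1.34% in leukemic libraries and 90.0 ± 0.538% in nonleukemic ones (SD, n = 3 each), a difference of -11.3 points, or -8.17 points when CpGs were weighted by coverage. Among 1463 windows of the same length on the autosomes with at least 20 CpGs and a mean above 80%, 9.98% were lower in leukemic libraries by at least 10 points, and 78, or 5.33%, by as much as Mpo or more. Their median difference was -5.41 points, and in 67.3% of them the leukemic libraries lay below all nonleukemic ones. The windows also differ in level: CpGs above 80% made up 86.7% at Mpo, against 12.4% at Gfi1, 17.0% at Cebpb and 17.7% at Cebpa. At Spi1, Irf8 and Elane they made up 31.1, 54.0 and 56.0%. CpGs near 0% can hardly be lower, and the part of this in the contrast between windows was not tested. The window means are given as a description and were not tested.

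**Figure D1:**
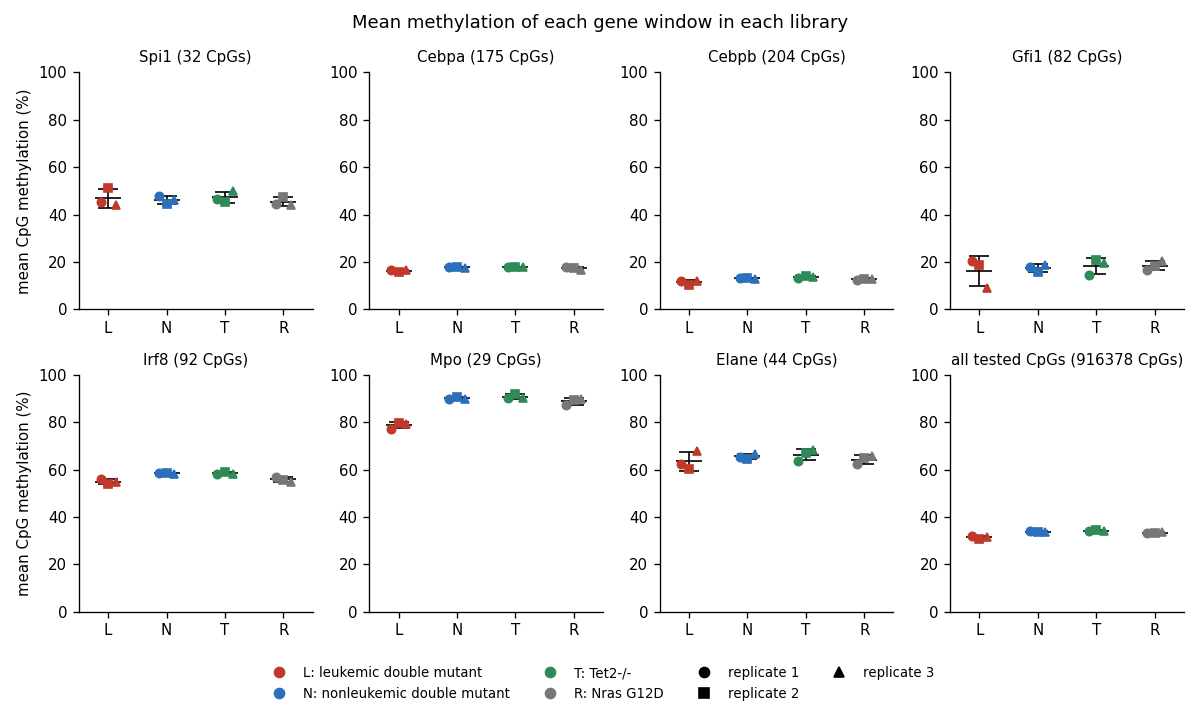
Mean methylation of the CpGs read in all 12 libraries (y axis, %) in each of the 7 windows and over all tested CpGs. Points are libraries, horizontal bars the group mean and vertical bars 1 SD (n = 3); the leukemic Mpo points lie at 77.2 to 79.8%, the 9 others at 87.2 to 91.9%.

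The transcription factor windows mixed unmethylated and methylated CpGs in different shares. CpGs under 20% made up 79.8% of those at Cebpa, 79.0% at Cebpb, 66.4% at Gfi1, 48.9% at Spi1 and 32.0% at Irf8, against 34.0% at Elane, 3.33% at Mpo and 58.3% of all CpGs. Leukemic means were 16.2 ± 0.353% at Cebpa, 11.4 ± 0.873% at Cebpb, 16.03 ± 6.32% at Gfi1, 54.9 ± 1.18% at Irf8, 46.9 ± 3.96% at Spi1 and 63.4 ± 3.91% at Elane. The nonleukemic double mutants had 17.7 ± 0.0650% at Cebpa, 13.1 ± 0.102% at Cebpb, 17.5 ± 1.60% at Gfi1, 58.4 ± 0.200% at Irf8, 46.1 ± 1.84% at Spi1 and 65.5 ± 0.919% at Elane. At Cebpa, Cebpb and Irf8 all 3 leukemic libraries lay below all 3 nonleukemic ones, as they did over all tested CpGs (31.5 ± 0.675% in leukemic and 33.9 ± 0.0601% in nonleukemic libraries). The Cebpb difference of -1.66 points was -3.74 over all CpGs of the rule, and the Irf8 difference of -3.51 was -0.591 when weighted by coverage. At Gfi1, Spi1 and Elane the groups overlapped. A partly methylated value cannot tell fewer methylated cells or alleles from fewer methylated CpGs in each cell.

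At Irf8, as at Cebpb and over all tested CpGs, every nonleukemic double mutant and Tet2-/- library lay above every Nras G12D library. Irf8 window means were 58.6, 58.4 and 58.2% in nonleukemic double mutants and 58.3, 58.9 and 58.3% in Tet2-/-, against 56.9, 55.8 and 54.8% in Nras G12D. The leukemic libraries, at 56.2, 53.9 and 54.7%, lay in or under the range of Nras G12D although they carry Tet2-/- by label. At Cebpb the means were 13.10, 13.18 and 12.98% in nonleukemic double mutants and 13.29, 13.98 and 13.77% in Tet2-/-, against 12.28, 12.85 and 12.89% in Nras G12D. Over all tested CpGs the group means were 33.9% in nonleukemic double mutants, 34.2% in Tet2-/- and 33.4% in Nras G12D.

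In the promoters that could be placed on mm9, the CpGs read in every library were near 0% on average in every group. These were 3 of 29 CpGs at Cebpa, 42 of 50 at Cebpb, 7 of 10 at Gfi1 and 9 of 38 at Irf8. Library means reached 0.59% at Cebpa, 1.02% at Cebpb, 3.1% at Gfi1 and 0.996% at Irf8. The highest value of a single CpG in any library was 1.74, 44.0, 15.6 and 11.9%, in the same order. The start tiles that follow also hold CpGs outside the promoters. Placement matched the CpG spacing of the RefSeq promoter to the CpG positions in the files: 42 positions matched at Cebpb (start at chr2:167514415), 17 at Irf8 (chr8:123260258), 13 at Cebpa (chr7:35904312) and 10 at Gfi1 (chr5:108153363, minus strand). The tile with the Cebpa start held 71 CpGs at 0.395 to 0.437% in leukemic, 0.270 to 0.370% in nonleukemic, 0.277 to 0.355% in Tet2-/- and 0.0356 to 0.102% in Nras G12D libraries. The Cebpb start tile, with 126 CpGs and 9331 to 28196 reads a library, lay at 0.498 to 0.684% in leukemic libraries, against 0.528 to 0.862% in nonleukemic ones, 0.855 to 1.73% in Tet2-/- and 0.5 to 0.675% in Nras G12D. Reads of the mitochondrial genome were 0.222 to 1.0% methylated in these libraries, so levels of this size were not read as differences. At the Gfi1 start tile, 1 leukemic library had 0% (0 of its reads, which allows up to 0.139%) and the other 11 libraries of all groups lay between 0.0502 and 2.11%.

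The Irf8 start tile was the most methylated of the 4. Over 17 CpGs it had 1.87, 0.812 and 2.91% in leukemic libraries, against 4.51, 5.02 and 4.52% in nonleukemic double mutants, 4.41, 6.08 and 4.55% in Tet2-/- and 7.72, 6.01 and 2.05% in Nras G12D. The leukemic libraries lay below all nonleukemic double mutant and Tet2-/- libraries, but the difference of -2.82 points from nonleukemic libraries did not pass (adjusted p = 0.148, quasi-binomial test). The methylated reads came mostly from CpGs downstream of the start. At the CpG at 123260650 on chromosome 8, singled out after its values were seen, the leukemic libraries had 0% each (which allows up to 10.7%), against 9.40, 6.52 and 19.1% in nonleukemic double mutants, 12.3, 21.9 and 4.4% in Tet2-/- and 33.6, 18.5 and 8.57% in Nras G12D.

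**Figure D2:**
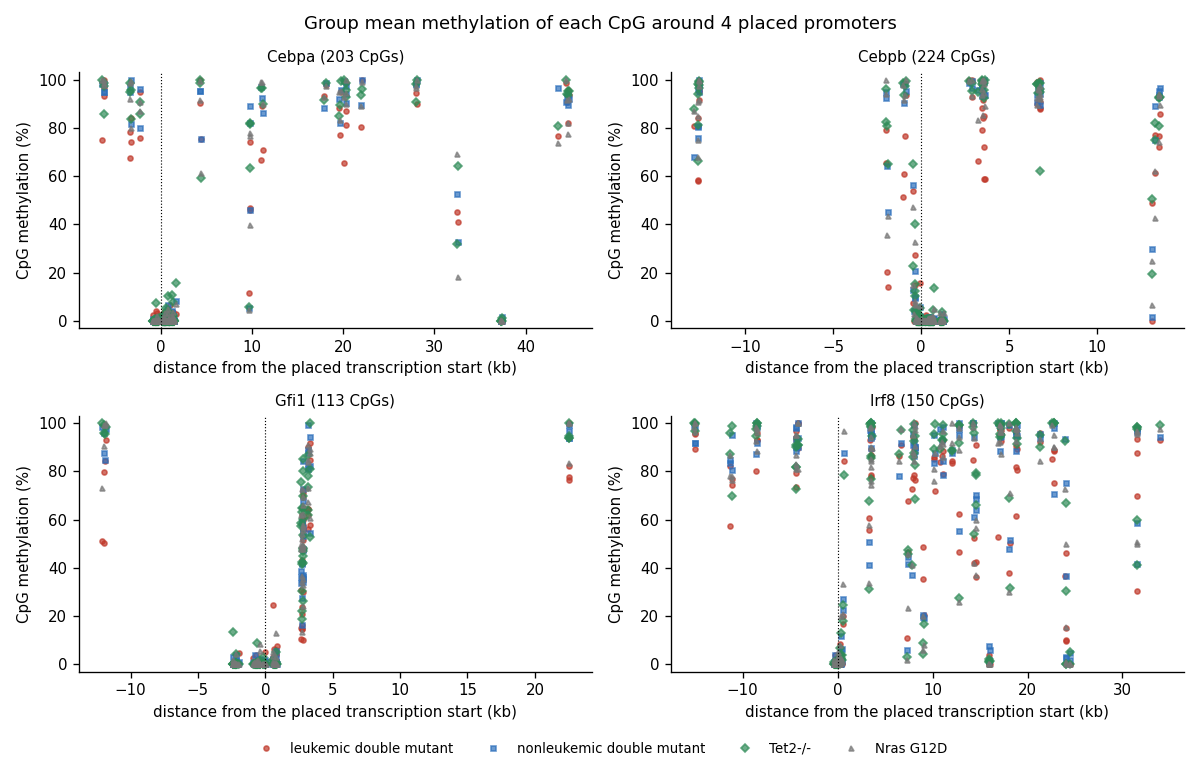
Group mean methylation of each CpG (y axis, %) against its distance from the placed transcription start (x axis, kb, positive downstream) for Cebpa, Cebpb, Gfi1 and Irf8. Each window has a block of CpGs near 0% at the start (dotted line) in all 4 groups; farther away most CpGs of Cebpa, Cebpb and Irf8 are above 80%, and Gfi1 has a partly methylated block downstream.

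In the 3 comparisons without leukemic libraries no tile of the 7 windows was called, a call being an adjusted p under 0.05 in the quasi-binomial test over all autosomes and a difference of at least 10 points. For Tet2-/- against Nras G12D the count was 0 of 57 tiles (0% of all tiles were called). At an unadjusted p under 0.05, 6 of the 57 were higher in Tet2-/- and 0 lower, 2 each at Cebpa and Irf8 and 1 each at Cebpb and Elane; 4.99% of all tiles were higher and 0.898% lower. For nonleukemic double mutants against Tet2-/- it was again 0 (0% of all tiles), with 0 higher and 0 lower unadjusted (0.97% and 2.38% of all tiles). For nonleukemic double mutants against Nras G12D it was 0 (0.00494% of all tiles), with 5 higher and 1 lower unadjusted (2.02% and 0.716% of all tiles). limma on log2 ratios also called 0 in each. Of the 815 CpGs, 0 were called for Tet2-/- against Nras G12D (0.000434% of all CpGs), where at an unadjusted p under 0.05 32 were higher and 18 lower (4.3% and 2.5% of all CpGs). The counts were 0 for nonleukemic double mutants against Tet2-/- (0% of all CpGs), with 14 higher and 17 lower unadjusted (2.66% and 3.38%), and 0 against Nras G12D (0.000781%), with 28 higher and 18 lower unadjusted (3.44% and 2.56%). limma called 0 CpGs in each.

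Against the nonleukemic double mutants, 3 of 57 tiles were called in leukemic libraries, 1 higher at Spi1 and 2 lower at Cebpb and Irf8. That is 5.26% of the tiles, near the 4.39% called over all autosomes (0.122% higher and 4.27% lower). Against Tet2-/-, 4 tiles were called lower, 1 each at Cebpb, Gfi1, Irf8 and Mpo, and 0 higher, beside 8.17% of all tiles called. Against Nras G12D, 1 tile was called, lower at Irf8, beside 2.32% of all tiles. In leukemic against nonleukemic libraries, 12 tiles were lower in every leukemic library than in every nonleukemic one (21.1%, beside 19.9% of all tiles) and 4 were higher in every one (7.02%, beside 2.56%). Against Tet2-/- the same counts were 15 lower (26.3%, beside 19.1% of all tiles) and 6 higher (10.5%, beside 2.26%), and against Nras G12D 5 lower (8.77%, beside 14.6%) and 4 higher (7.02%, beside 2.95%). The median difference was -2.19 points over the 57 tiles and -2.01 over all tiles. The 3 comparisons share the leukemic libraries, so their calls are not independent. None of these calls passed with limma on log2 ratios or with a fit of only the 6 libraries compared.

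Spi1 held the tile that was higher in leukemic cells. At chr2:90926000-90926999, 11 kb into the window, 3 CpGs together were at 72.3, 49.3 and 78.4% in leukemic libraries, against 42.6, 32.9 and 34.1% in nonleukemic double mutants, 39.2, 58.8 and 52.7% in Tet2-/- and 27.2, 40.4 and 39.3% in Nras G12D. All leukemic libraries lay above all nonleukemic and Nras G12D ones, and overlapped Tet2-/-. The difference from nonleukemic libraries was 30.2 points (66.7 ± 15.4% against 36.5 ± 5.27%, adjusted p = 0.0299), from Tet2-/- 16.5 points (adjusted p = 0.113) and from Nras G12D 31.0 points (adjusted p = 0.0521). The call was lost without leukemic replicate 1 (adjusted p = 0.099) and without any 1 of the nonleukemic replicates (0.0757, 0.138 and 0.112).

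The middle of the 3 Spi1 CpGs, at 90926569, carried the largest part. It had 86.9, 75.5 and 97.8% in leukemic libraries, against 38.2, 42.5 and 45.9% in nonleukemic double mutants, 51.9, 44.7 and 57.1% in Tet2-/- and 33.9, 51.7 and 60.2% in Nras G12D, from 38 to 198 reads a library. The 3 leukemic libraries lay above all 9 others. The difference from nonleukemic libraries of 44.5 points was called (adjusted p = 0.041), those from Tet2-/- (35.5 points, adjusted p = 0.0677) and Nras G12D (38.1 points, adjusted p = 0.0888) were not. It was 1 of 2 CpGs of the windows called in this comparison, or 0.245% of 815, beside 0.132% of all CpGs. At an unadjusted p under 0.05, 4 of the 57 tiles were higher in leukemic than in nonleukemic libraries (2.3% of all tiles), 3 of them at Spi1. At the same threshold 12 of the 57 were lower (21.1%, beside 20.1% of all tiles), 0 of them at Spi1. The Spi1 tile at 90937000, 1 of those higher, was near the floor, with 4.32% in leukemic and 0.489% in nonleukemic libraries, and its groups overlapped.

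Of the 57 tiles, the one with the widest range of group means was also at Spi1, and its leukemic libraries ran from 0 to 69.4%. At chr2:90953000-90953999, 3 neighbouring CpGs were together at 26.7, 69.4 and 0% in leukemic libraries (0% allows up to 8.33%), against 76.7, 58.1 and 73.3% in nonleukemic double mutants, 70.2, 93.8 and 69.9% in Tet2-/- and 55.0, 65.0 and 29.8% in Nras G12D. The mean of 32.0 ± 35% in leukemic libraries lay -37.4 points from that of nonleukemic ones (adjusted p = 0.24). The lowest coverage was 12 reads per CpG, so these values rest on few molecules.

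Cebpa showed no called tile or CpG in any comparison. Its CpGs outside the unmethylated centre were mostly above 80%, and a second unmethylated tile of 5 CpGs lay 37.2 kb downstream of the start, at 0 to 0.6% in all libraries of all groups (0% allows up to 0.713%). The tile with the widest range, 10.2 kb downstream, had 48.2, 49.0 and 61.0% in leukemic libraries, against 68.9, 65.0 and 60.5% in nonleukemic double mutants, 60.6, 66.6 and 77.2% in Tet2-/- and 61.0, 50.3 and 58.8% in Nras G12D. Its difference from nonleukemic libraries was -12.1 points (adjusted p = 0.201) and from Tet2-/- -15.4 points (adjusted p = 0.0545). The CpG with the widest range of group means at Cebpa, at 35936909, had 100, 22.7 and 0% in leukemic libraries (0% allows up to 11.5%), against 33.3, 47.6 and 17.8% in nonleukemic double mutants, 43.9 and 84.5% in the 2 Tet2-/- libraries that read it and 27.7, 26.7 and 0% in Nras G12D. The leukemic libraries spanned the whole scale there, and the difference from nonleukemic libraries of 8.02 points was not called (adjusted p = 1.0) and was -21.5 points without leukemic replicate 1.

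Cebpb had 2 called tiles, one on each side of the unmethylated centre. At chr2:167513000-167513999, which ends less than 1 kb before the start, 6 CpGs had 54.3, 47.5 and 76.4% in leukemic libraries, against 76.0, 82.4 and 78.2% in nonleukemic double mutants, 85.0, 79.0 and 73.7% in Tet2-/- and 78.1, 71.0 and 81.7% in Nras G12D. Leukemic replicates 1 and 2 were low and replicate 3 lay among the other groups. The difference was called against Tet2-/- (-19.8 points, adjusted p = 0.0378) and not against nonleukemic libraries (-19.5 points, adjusted p = 0.0632) or Nras G12D (-17.5 points, adjusted p = 0.144). It was lost without leukemic replicate 1 (adjusted p = 0.0602), leukemic replicate 2 (0.111) or any Tet2-/- replicate (0.134, 0.0938 and 0.0537). The CpG at 167513399 alone had 46.7, 10.2 and 97.3% in the leukemic libraries, against 93.4 to 100% in the 9 others.

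At chr2:167527000-167527999, 13.1 kb downstream of the Cebpb start, 4 CpGs had 63.9, 80.2 and 77.1% in leukemic libraries, against 89.8, 95 and 94.0% in nonleukemic double mutants, 84.7, 90.7 and 85.1% in Tet2-/- and 71.7, 79.8 and 88.1% in Nras G12D. The leukemic libraries lay below all nonleukemic and Tet2-/- ones and overlapped Nras G12D. The difference from nonleukemic libraries of -19.2 points was called (adjusted p = 0.0175). Over all CpGs of the rule in the tile it was -7.88 points (adjusted p = 0.454), and the call was lost without nonleukemic replicate 2 (0.0973) or 3 (0.0939). The single CpG with the widest range at Cebpb, at 167512466, had 15, 45.5 and 0% in leukemic libraries (0% allows up to 3.26%), against 63.9, 71.2 and 57.3% in nonleukemic double mutants, 60.3, 91.9 and 90.6% in Tet2-/- and 31.1, 51.3 and 25% in Nras G12D, with no call.

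Gfi1 had 1 called tile, upstream of the gene. At chr5:108165000-108165999, 3 CpGs had 81.0, 62.8 and 89.7% in leukemic libraries, against 96.7, 93.6 and 96.7% in nonleukemic double mutants, 95.9, 98.2 and 96.1% in Tet2-/- and 94.0, 99.0 and 96.3% in Nras G12D. All 3 leukemic libraries lay below all 9 others. The difference was called against Tet2-/- (-18.9 points, adjusted p = 0.0351) and not against nonleukemic libraries (-17.8 points, adjusted p = 0.0586) or Nras G12D (-18.6 points, adjusted p = 0.096). It was lost without leukemic replicate 2 (adjusted p = 0.0743) or any Tet2-/- replicate (0.0684, 0.125 and 0.0861).

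One CpG of that tile, at 108165321, was lower in every leukemic library. It had 55.3, 58.7 and 36.8% in leukemic libraries, against 98.4, 96.5 and 92.4% in nonleukemic double mutants, 92.6, 100 and 95.5% in Tet2-/- and 82.9, 97.8 and 90.7% in Nras G12D, from 19 to 114 reads a library. It was called against nonleukemic libraries (-45.5 points, adjusted p = 0.0356) and Tet2-/- (-45.8 points, adjusted p = 0.0223), the only CpG of the windows called in the comparison with Tet2-/- (0.123% of 815, beside 0.31% of all CpGs), and not against Nras G12D (-40.2 points, adjusted p = 0.106). The call against nonleukemic libraries was lost without any 1 of those replicates (0.133, 0.154 and 0.111) and that against Tet2-/- without its replicate 2 (0.0847) or 3 (0.088). No CpG of the windows was called against Nras G12D by the quasi-binomial test or by limma, beside 0.0506% of all CpGs called. At an unadjusted p under 0.05, 34 were higher and 76 lower there (4.01% and 8.9% of all CpGs).

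The leukemic libraries also differed widely from each other in a partly methylated block 2.86 kb downstream of the Gfi1 start, which was singled out after its values were seen. Its 21 complete CpGs had 75.4, 54.4 and 23.8% in leukemic libraries, against 55.7, 40.9 and 54.2% in nonleukemic double mutants, 38.3, 57.7 and 57.3% in Tet2-/- and 41.9, 51.6 and 56.5% in Nras G12D. The group means hardly differed (0.901 points, adjusted p = 0.877, for leukemic against nonleukemic libraries). Within it, 9 neighbouring CpGs in 47 bases were at 100% at every position in leukemic replicate 1 (69 to 77 reads each), on average 60.5% in replicate 2 and 25.7% in replicate 3, against 32.7 to 59.0% in the 9 other libraries. The next 8 CpGs, in 42 bases, were at 0% at 6 positions in leukemic replicate 1 and on average at 9.87, 36.7 and 15.7% in the 3 leukemic libraries, against 32.0 to 68.3% in the others. Neighbouring CpGs of this kind share reads of 50 bases, and reads carry no molecular identifiers, so they are not independent measurements.

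**Figure D3:**
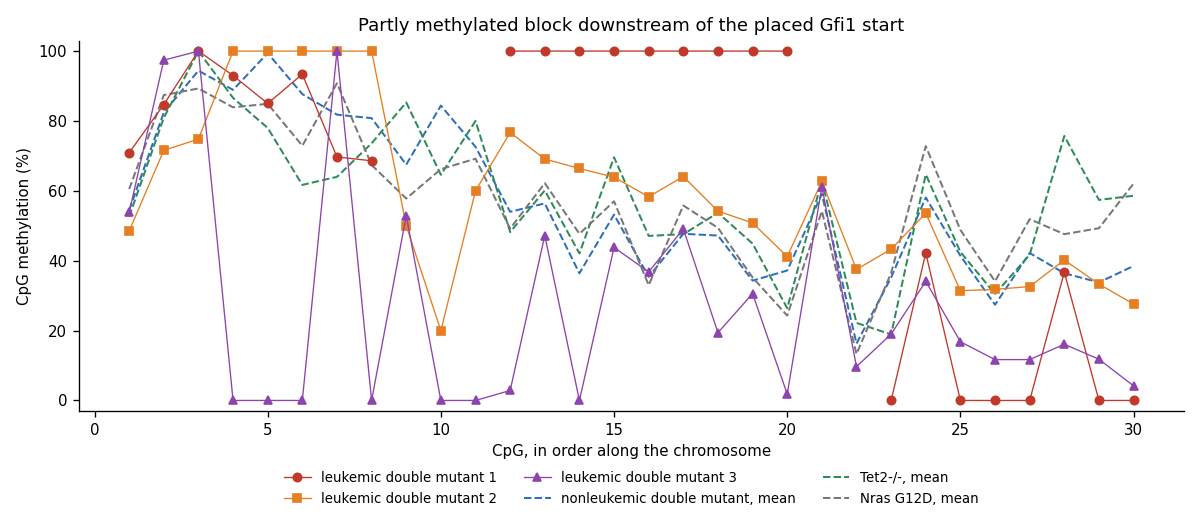
Methylation (y axis, %) of 30 neighbouring CpGs downstream of the placed Gfi1 start, in order along the chromosome (x axis). Symbols joined by solid lines are the 3 leukemic libraries and dashed lines the means of the other groups; leukemic replicate 1 stays at 100% over 9 neighbouring CpGs at which the other groups' libraries average 32.7 to 59.0%.

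Irf8 held the tile that was called in all 3 comparisons with leukemic libraries. At chr8:123279000-123279999, 19.2 kb downstream of the start, 6 CpGs had 81.6, 87.6 and 85.5% in leukemic libraries, against 92.8, 97.6 and 97.3% in nonleukemic double mutants, 96.7, 100 and 94.8% in Tet2-/- and 95.3, 96.8 and 97.9% in Nras G12D. The 3 leukemic libraries lay below all 9 others. The differences were -11.0 points from nonleukemic double mutants (adjusted p = 0.0355), -12.3 from Tet2-/- (adjusted p = 0.00855) and -11.8 from Nras G12D (adjusted p = 0.0461). The call against Tet2-/- held without each single library in turn (adjusted p 0.0108 to 0.0487). The call against nonleukemic libraries was lost without any 1 of those libraries (0.0599, 0.182 and 0.142), and without leukemic replicate 1 the difference was -9.35 points. That against Nras G12D was lost without leukemic replicate 3 (0.0527), without each Nras G12D replicate (0.111, 0.164 and 0.175) and at a coverage minimum of 20 reads (0.055).

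At 2 CpGs of the tile, leukemic replicate 1 differed from leukemic replicates 2 and 3. Both CpGs that follow were singled out after their values were seen. The CpG at 123279069 was at 0% in leukemic replicate 1 (which allows up to 4.23%) and at 100 and 84.2% in replicates 2 and 3, against 93.1 to 100% in the 9 other libraries. The CpG at 123279174 had 100, 65.3 and 76.3% in the leukemic libraries, against 81.0 to 100% in the others. No single CpG of the tile was called against nonleukemic libraries (adjusted p 0.219 to 1.0).

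Other Irf8 tiles moved in both directions without a call. The tile with the widest range, 9.24 kb downstream of the start, was higher in leukemic libraries, with 35.6, 39.7 and 25.5%, against 32.6, 20.3 and 6.99% in nonleukemic double mutants, 17.1, 4.90 and 10.8% in Tet2-/- and 8.74, 5.26 and 16.5% in Nras G12D. All leukemic libraries lay above all Tet2-/- and Nras G12D ones (22.7 points, adjusted p = 0.056, and 23.4 points, adjusted p = 0.0607). At 8.24 kb downstream, a tile singled out after its values were seen was at 82.3, 81.1 and 82.1% in leukemic libraries, against 52.8, 75.5 and 53.2% in nonleukemic double mutants, 56.9, 53.0 and 71.7% in Tet2-/- and 68.6, 59.2 and 79.4% in Nras G12D. The 3 leukemic libraries lay above all 9 others there (21.3 points from nonleukemic libraries, adjusted p = 0.173). At 14.2 kb downstream, a tile singled out after its values were seen had 40.9, 56.0 and 46.1% in leukemic libraries, against 66.7, 59.4 and 71.3% in nonleukemic double mutants, 60.7, 73.8 and 59.0% in Tet2-/- and 50.8, 42.9 and 44.3% in Nras G12D. There the nonleukemic Tet2-null libraries lay above both leukemic and Nras G12D ones, with an adjusted p of 0.0881 for leukemic against nonleukemic and 0.835 for Tet2-/- against Nras G12D. The CpG with the widest range of group means at Irf8, at 123284177, had 67.8, 18.7 and 23.8% in leukemic libraries, against 87.5, 94.4 and 98% in nonleukemic double mutants, 85.5 and 100% in the 2 Tet2-/- libraries that read it and 65.5, 66.3 and 86.6% in Nras G12D. The leukemic libraries lay below the nonleukemic and Tet2-/- ones and overlapped Nras G12D, with no call (-56.5 points from nonleukemic libraries, adjusted p = 0.151).

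**Figure D4:**
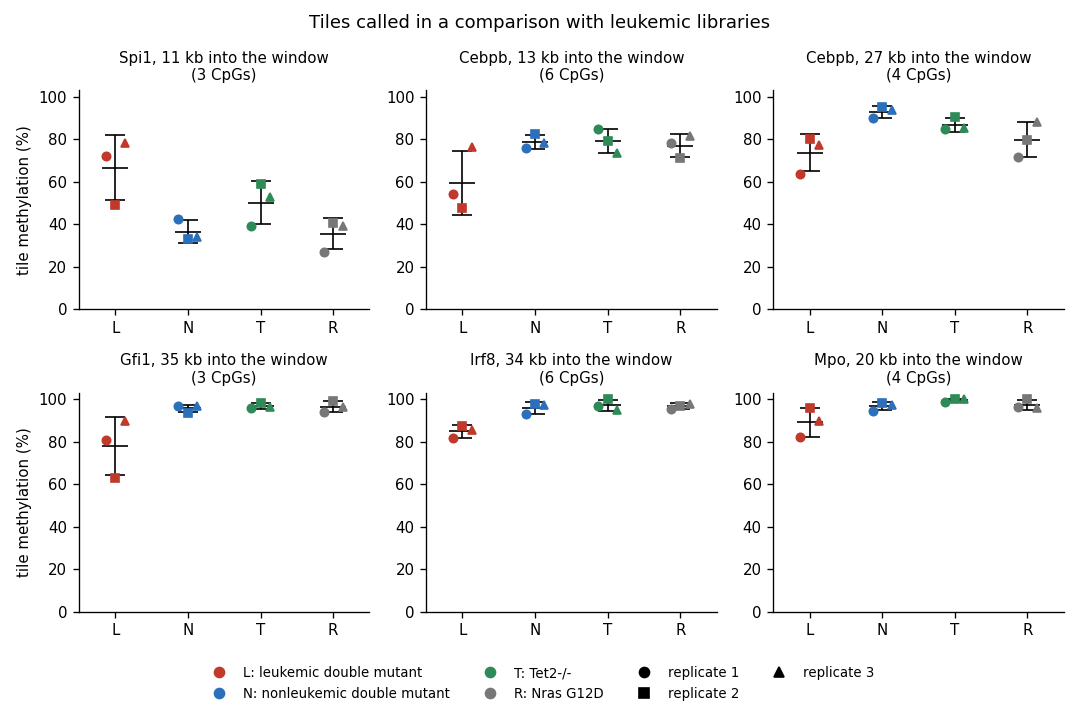
Methylation (y axis, %) of the 6 tiles called in at least 1 comparison with leukemic libraries. Points are libraries, horizontal bars the group mean and vertical bars 1 SD (n = 3); the Spi1 tile is higher in leukemic libraries (66.7 ± 15.4%) than in nonleukemic ones (36.5 ± 5.27%), the Irf8 tile lower (84.9 ± 3.06% and 95.9 ± 2.65%).

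Of the granule genes, Mpo was the most methylated window, with 86.7% of its CpGs above 80%, and the 2 CpGs of its 300-base promoter were not enough to place the start. All 5 tested tiles were lower on average in leukemic libraries than in each other group. Of all tiles above 80% on average, 83.0% were lower in leukemic than in nonleukemic libraries. The shares against Tet2-/- and Nras G12D were 84.4% and 79.8%. Of the 5 Mpo tiles, 1 was called. At chr11:87615000-87615999, 4 CpGs had 82.1, 95.7 and 89.8% in leukemic libraries, against 94.5, 98.3 and 97.2% in nonleukemic double mutants, 98.9, 100 and 100% in Tet2-/- and 96.3, 100 and 95.7% in Nras G12D. Leukemic replicates 1 and 3 lay below the 9 libraries of the other groups, and replicate 2 lay among them. The difference was called against Tet2-/- (-10.5 points, adjusted p = 0.0289) and not against nonleukemic libraries (-7.47 points, adjusted p = 0.159) or Nras G12D (-8.12 points, adjusted p = 0.16). It was lost without any Tet2-/- replicate (0.0747, 0.0724 and 0.0808) and without leukemic replicate 1, which alone had 6.98% at the CpG at 87615166, against 90.3 to 100% in the 9 libraries of the other groups; the tile then differed by -6.92 points (adjusted p = 0.0584).

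The Mpo tile with most CpGs, also described after its values were seen, missed the size rule. At chr11:87627000-87627999, 10 CpGs had 84.0, 87.4 and 93.6% in leukemic libraries, against 96.2, 97.1 and 95.4% in nonleukemic double mutants, 96.8, 93.9 and 97.0% in Tet2-/- and 97.5, 93.6 and 95.1% in Nras G12D. The difference was -7.88 points from nonleukemic libraries (adjusted p = 0.0455) and -7.56 from Tet2-/- (adjusted p = 0.029), under the 10-point minimum. The CpG with the widest range at Mpo, at 87606650, had 45.9, 44.0 and 0% in leukemic libraries (0% allows up to 4.84%), against 71.3, 84.4 and 64.4% in nonleukemic double mutants, 70.7, 82.8 and 81.8% in Tet2-/- and 69.6, 80 and 81.3% in Nras G12D. All 3 leukemic libraries lay below all 9 others, with no call (-43.4 points from nonleukemic libraries, adjusted p = 0.178).

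**Figure D5:**
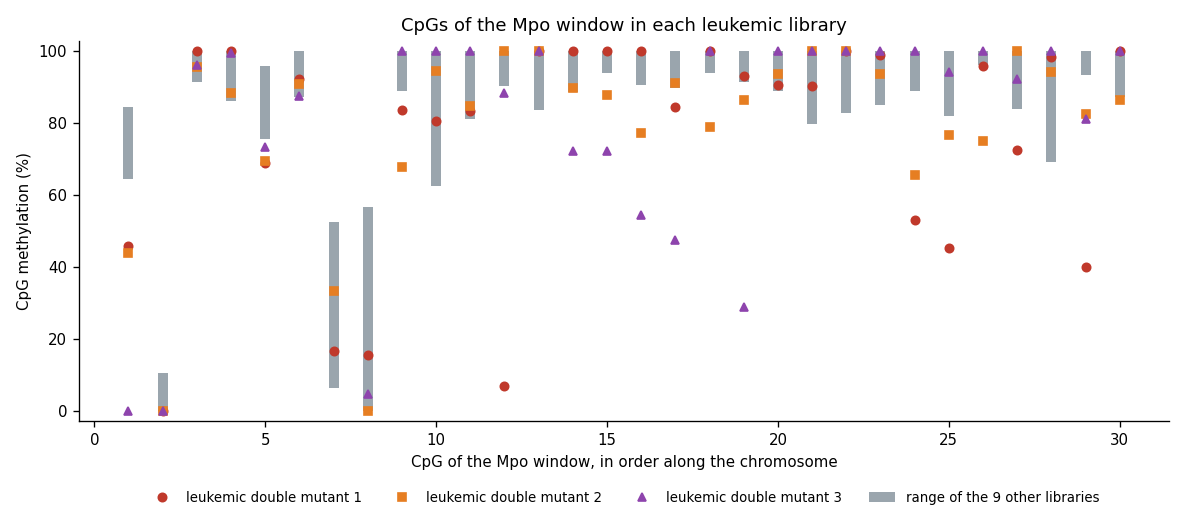
Methylation (y axis, %) of the 30 CpGs of the Mpo window in order along the chromosome (x axis). Symbols are the 3 leukemic libraries and grey bars the range of the 9 other libraries; the lowest leukemic values fall at different CpGs in different libraries, such as 6.98% in replicate 1 and 28.9% in replicate 3.

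The lower Mpo mean was spread over single CpGs that differed between the leukemic libraries. Of 29 Mpo CpGs read in every library, 14 had at least 1 leukemic library more than 10 points below all 9 others (48.3%, beside 12.5% of all CpGs). In 10 of them it was 1 leukemic library, in 2 it was 2 and in 2 it was all 3. These are 34.5, 6.9 and 6.9% of the 29, beside 9.55, 2.42 and 0.5% of all CpGs. Over all CpGs, too, it was mostly 1 leukemic library, at 87484 of 114240 such CpGs. Restricted to CpGs above 80% on average, the share with at least 1 such leukemic library was 50.0% of 26 at Mpo, beside 31.0% overall. The same share was 83.3% of 6 at Gfi1, 43.5% of 23 at Cebpb and 32.3% of 31 at Cebpa. At Irf8, Elane and Spi1 it was 27.7% of 47, 25.9% of 27 and 18.2% of 11. Leukemic replicate 3 had 28.9% at the CpG at 87627744, where replicates 1 and 2 had 93.2 and 86.5% and the other groups 91.5 to 100%. These shares are a description of the libraries and were not tested.

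Elane showed no called tile or CpG. Its window held 2 tiles of low or intermediate methylation followed by 4 highly methylated ones, all 4 above 85% on average in leukemic, nonleukemic and Nras G12D libraries. The tile with the widest range, of 7 CpGs, had 95.9, 77.6 and 89.2% in leukemic libraries, against 90.6, 89.9 and 91.8% in nonleukemic double mutants, 86.0, 67.2 and 90.5% in Tet2-/- and 88.3, 88.7 and 93.8% in Nras G12D with Tet2-/- replicate 2 the lowest of the 12 libraries. The first tile of the window had 1.49, 4.82 and 15% in leukemic libraries, against 1.93 to 2.54% in nonleukemic double mutants, 0.572 to 8.42% in Tet2-/- and 0.294 to 4.73% in Nras G12D. A tile of 10 CpGs, singled out after its values were seen, was at 89.1 ± 3.93% in leukemic and 97.0 ± 1.26% in Tet2-/- libraries. These differed by -7.90 points (adjusted p = 0.0246, quasi-binomial test), under the 10-point minimum. Nonleukemic double mutants had 94.9 ± 2.24% and Nras G12D libraries 90.3 ± 1.88%. From these, leukemic libraries differed by -5.81 points (adjusted p = 0.156) and -1.23 points (adjusted p = 0.883) in the same test. The CpG with the widest range of group means at Elane, at 79356406, had 47.3 and 0% in the 2 leukemic libraries that read it (0% allows up to 25%), against 68, 35.4 and 44.7% in nonleukemic double mutants, 35.1, 96.7 and 41% in Tet2-/- and 34.9, 21.2 and 0% in Nras G12D, from 12 to 61 reads a library. The groups overlapped (-25.7 points for leukemic against nonleukemic libraries, adjusted p = 0.871). Elane lies beside Prtn3, the gene of proteinase 3, another granule protease.

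Across the 7 windows, CpGs at which 1 library departed from all the others were unevenly spread over the libraries. Of 658 CpGs read in every library, the 3 leukemic replicates were each the lowest by at least 25 points at 12, 3 and 15 CpGs, Tet2-/- replicates 1, 2 and 3 at 0, 6 and 2, Nras G12D replicates at 0, 0 and 1, and the 3 nonleukemic double mutants at 0 each. The shares over all autosomal CpGs read in every library were 1.06, 0.771 and 2.06% in the leukemic libraries, 0.0169, 0.0169 and 0.0150% in nonleukemic double mutants, 0.0200, 0.497 and 0.146% in Tet2-/-, and 0.0219, 0.0179 and 0.377% in Nras G12D. In the 7 windows the leukemic shares were 1.82, 0.456 and 2.28%. Leukemic replicates were each the highest by at least 25 points at 8, 2 and 3 CpGs. For Tet2-/- replicates the counts were 0, 8 and 3, for Nras G12D 0, 0 and 2, and for nonleukemic double mutants 0 each. Over all CpGs these shares were 0.381, 0.035 and 0.376% in leukemic and 0.0202, 0.766 and 0.15% in Tet2-/- libraries. They were 0.00851, 0.00349 and 0.162% in Nras G12D and 0.00851, 0.00753 and 0.00578% in nonleukemic libraries. At the 171 member CpGs above 80% on average, the range between the 3 replicates exceeded 25 points at 60 CpGs in the leukemic group (35.1%, beside 29.8% of all such CpGs), 3 in nonleukemic double mutants (1.75%, beside 2.43%), 19 in Tet2-/- (11.1%, beside 8.23%) and 16 in Nras G12D (9.36%, beside 7.9%). Of these libraries, Tet2-/- replicate 2 was the shallowest (96300485 reads) and leukemic replicate 1 the deepest (199736369 reads), and the part of depth in these counts was not tested.

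Other genes of the same programme gave few readable promoters. Of 34 further myeloid genes, 27 were in the promoter table and 9 could be placed: 8 of 15 transcription factors (Klf4, Egr2, Irf4, Irf5, Myb, Junb, Stat3 and Zeb2), 0 of 12 granule and effector genes and 1 of 7 receptor genes (Csf2ra, a chain of the receptor for GM-CSF). Their 14 tiles gave 0 calls in any of the 6 comparisons. The transcription factor tiles were mostly near 0% in all groups, with the highest library value of 28.3% at a tile of Irf4, which averaged 15% in leukemic, 11.4% in nonleukemic and 17.3% in Tet2-/- libraries. The Csf2ra tile averaged 56.6% in leukemic, 62.0% in nonleukemic and 64.7% in Tet2-/- libraries. The granule genes had a median of 3 CpGs in 300 bases and the transcription factors 19, the same contrast as between Mpo or Elane and Cebpa or Cebpb.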

How the data were processed

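The deposited tables list, for each cytosine, the coverage as a read count and the percent of reads with C and with T, as made by the authors, and hold only positions with at least 10 reads. Reads were aligned with Bismark to mm9, per the submitters' processing notes; the version is not given in the sources used here. Libraries were made from MspI fragments and sequenced as single-end reads of 50 bases, without molecular identifiers, per the labels' protocols, so counting intervals (Wilson, 95%) and limits of a 0% value (3 counts over the reads) cover counting error only.

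The coverage and percent columns gave the methylated count, and both strands of a CpG were added. CpGs above the 99.9th coverage percentile of a library were left out. Tiles of 1000 bp used CpGs read in all 12 libraries, at least 3 a tile. A quasi-binomial model of the 4 groups, with dispersions moderated by limma 3.58.1 (R 4.3.3, Python 3.11.15), was fitted to 81040 tiles and 1152111 CpGs of the autosomes, and p-values were adjusted by Benjamini-Hochberg over all of them. Each tile or CpG had a single spread shared by all 4 groups, although leukemic replicates differed more from each other than other replicates did. Calls were limited to an adjusted p under 0.05 with at least 10 points between group means for a tile, or 25 for a CpG. The script was tested on simulated data. The genes, windows and lists were chosen with earlier results of these data known. Tiles named were those called, those at a placed promoter and, per window, the one with the widest range of group means; CpGs named were those called and, in windows with none, the one with the widest range. Others are said to be singled out or lie in a named tile. No genome or annotation of mm9 was used, so exons and introns are not given, and promoters were placed by CpG spacing. Alternatives were another coverage minimum, no upper coverage limit, limma on log2 ratios, a fit of 6 libraries, a replicate block, each library left out, shifted tiles and coverage-weighted means.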

Additional observations from a re-analysis of the deposited data

How the results depend on the processing

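No called tile or CpG changed direction under an alternative that was run. Some uncalled differences did when 1 library was left out: 8.02 became -21.5 at the Cebpa CpG of widest range, -3.18 became 1.81 at that tile of Elane, and 0.0395 reached -0.161 at the Gfi1 start tile. The Spi1 window mean, 0.731 points, became -0.553 over all CpGs of the rule and -0.585 weighted by coverage. The 3 comparisons without leukemic libraries gave 0 calls in the windows under each of them. For leukemic against nonleukemic libraries, the 3 tile calls became 5 with shifted tiles, 0 with limma on log2 ratios, 0 with a fit of 6 libraries and 0 to 7 with 1 library left out; the 2 CpG calls became 0 with limma, 0 with 6 libraries and 0 to 5 with 1 library left out. For leukemic against Tet2-/-, the 4 tile calls became 2 at a coverage minimum of 20, 0 with limma, 0 with 6 libraries and 1 to 8 with 1 left out; the 1 CpG call became 0 with limma, 0 with 6 libraries and 0 to 7 with 1 left out. For leukemic against Nras G12D, the 1 tile call became 0 at a coverage minimum of 20, 3 with shifted tiles, 0 with limma, 0 with 6 libraries and 0 to 3 with 1 left out, and the 0 CpG calls 0 to 2. Over all autosomes, tiles called against nonleukemic libraries, Tet2-/- and Nras G12D numbered 3559, 6621 and 1880, against 46, 1162 and 0 with limma and 1145, 1112 and 339 with 6 libraries; the cause was not tested. Same-numbered replicates did not vary together over the tiles (correlations -0.0121 to 0.0217). This cannot show whether same-numbered libraries were prepared together. With the replicate number as a block the tile calls were 2, 5 and 0 and the CpG calls against nonleukemic libraries 0. Window differences between leukemic and nonleukemic libraries became -1.86 at Cebpa and -3.74 at Cebpb over all CpGs of the rule, where libraries average different CpGs, and -0.591 at Irf8 and -8.17 at Mpo weighted by coverage. With 1 library left out, an alternative chosen after seeing the data, they ranged from -1.52 to 2.22 at Spi1, -1.57 to -1.24 at Cebpa, -1.97 to -1.16 at Cebpb, -3.74 to 2.16 at Gfi1, -4.14 to -2.97 at Irf8, -11.9 to -10.6 at Mpo and -4.27 to -0.464 at Elane.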
